A study of Mus musculus with 16 samples.

Results

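Cytochrome P450 enzymes of families 1 to 3 were followed in the livers of fasted and fed mice with and without the nuclear receptor PPARβ/δ. The genes were every measured gene whose symbol begins with Cyp1, Cyp2 or Cyp3 followed by a subfamily letter and a number, with pseudogenes left out, which gave 52 of the 19935 genes tested, in 16 subfamilies. The choice used gene names and no measured value. Subfamily Cyp2c had 13 genes, Cyp2d 9, Cyp2j 6, Cyp3a 6 and Cyp2b 5. Cyp1a and Cyp2a had 2 each, and the other 9 subfamilies had 1 each. Each of the 52 genes was read by 1 probe set paired with that symbol alone.

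The 16 mice, all male and of a mixed Sv129/C57Bl/6 background, formed 4 groups with 1 array per mouse: 3 PPARβ/δ knockout mice fasted for 24 h, 4 PPARβ/δ knockout mice that were fed, 5 wild-type mice fasted for 24 h and 4 wild-type mice that were fed. The submitters state 4 to 5 mice for each group, so the knockout fasted group holds fewer arrays than stated. The sources used here do not give the age of the mice, the deleted part of Ppard, or whether the wild-type mice were littermates. Tissue came from the same part of a liver lobe, and bulk liver RNA cannot tell fewer cells of a type from less RNA per cell.

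These enzymes are heme proteins of the endoplasmic reticulum that insert 1 atom of oxygen into fat-soluble molecules, with electrons passed on by P450 reductase and cytochrome b5. In liver they oxidise drugs, steroids, bile acids, fatty acids and vitamin D. Many Cyp2b, Cyp2c and Cyp3a genes are induced through the receptors CAR (Nr1i3) and PXR (Nr1i2), and Cyp1 genes through the aryl hydrocarbon receptor (Ahr). Several are expressed mainly in hepatocytes around the central vein, some around the portal vein, and several differ between the sexes in mice through growth hormone.

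The genes whose levels carry the results below are shown by the 250 bases before their RefSeq start (GRCm38.p6), printed 5′ to 3′ on the gene's strand. Capitals mark AGGTCA (a nuclear receptor half-site), CAAAGTC (an HNF4-type element), TGTTTAC (forkhead) and TATAAA on either strand, so TTTATA in the first is TATAAA on the other strand, and no capital run overlaps another. Cyp2c70 lies at chr19:40187287-40187536 on the minus strand, Cyp2c67 at chr19:39649043-39649292 on the minus strand, Cyp2f2 at chr7:27119705-27119954 on the plus strand, and Cyp2c38 at chr19:39463076-39463325 on the minus strand. Cyp2c29, at chr19:39286835-39287084 on the plus strand, and Cyp2c37, at chr19:39992174-39992423 on the plus strand, are shown as Cyp2c genes of the same chromosome with other levels.
Cyp2c70: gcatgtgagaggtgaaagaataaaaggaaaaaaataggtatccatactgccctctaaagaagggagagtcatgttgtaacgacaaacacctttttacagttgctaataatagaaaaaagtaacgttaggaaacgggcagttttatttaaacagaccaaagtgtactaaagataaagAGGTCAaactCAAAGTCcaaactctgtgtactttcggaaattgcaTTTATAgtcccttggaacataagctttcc
Cyp2c67: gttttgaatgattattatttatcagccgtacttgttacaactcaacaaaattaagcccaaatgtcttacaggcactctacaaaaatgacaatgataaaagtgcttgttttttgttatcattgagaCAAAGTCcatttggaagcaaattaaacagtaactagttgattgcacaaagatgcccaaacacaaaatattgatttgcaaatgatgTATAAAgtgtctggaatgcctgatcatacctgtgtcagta
Cyp2f2: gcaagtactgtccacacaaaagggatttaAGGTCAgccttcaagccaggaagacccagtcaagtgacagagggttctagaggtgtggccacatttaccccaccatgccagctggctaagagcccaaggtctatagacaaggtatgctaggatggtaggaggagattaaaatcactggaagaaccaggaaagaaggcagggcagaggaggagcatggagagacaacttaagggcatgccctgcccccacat
Cyp2c38: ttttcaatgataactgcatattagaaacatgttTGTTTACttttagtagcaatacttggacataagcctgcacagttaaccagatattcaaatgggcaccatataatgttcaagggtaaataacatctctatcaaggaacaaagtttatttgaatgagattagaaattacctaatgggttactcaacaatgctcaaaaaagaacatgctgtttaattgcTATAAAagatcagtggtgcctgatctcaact
Cyp2c29: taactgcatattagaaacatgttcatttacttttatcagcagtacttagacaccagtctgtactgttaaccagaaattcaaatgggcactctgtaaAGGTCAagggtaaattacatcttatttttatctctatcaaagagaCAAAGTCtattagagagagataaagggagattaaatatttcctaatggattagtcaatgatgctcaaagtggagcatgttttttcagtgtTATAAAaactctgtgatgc
Cyp2c37: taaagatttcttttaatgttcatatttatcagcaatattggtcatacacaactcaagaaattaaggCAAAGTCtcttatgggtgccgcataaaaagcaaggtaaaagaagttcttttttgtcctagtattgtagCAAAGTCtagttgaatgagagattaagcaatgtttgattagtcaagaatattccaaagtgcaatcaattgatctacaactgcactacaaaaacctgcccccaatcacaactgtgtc

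Of the 52 genes, 44 had such a window in the RefSeq table. Over both strands, AGGTCA was in 14 of the 44, or 31.8%, against 14% of all 32851 windows. CAAAGTC was in 12 of the 44, or 27.3%, against 3.84% of all windows, and 8 of these 12 were Cyp2c genes. TGTTTAC was in 6 (13.6%, against 3.17%), TATAAA in 21 (47.7%, against 12.4%), GTTAAT (an HNF1-type half-site) in 2 (4.55%, against 6.43%) and GCGTG (the core read by the aryl hydrocarbon receptor) in 8 (18.2%, against 28.2%). In Cyp2c70 an AGGTCA ended 69 bases and a CAAAGTC 58 bases before the start. The windows are related by descent, with 84.3% identical columns between Cyp2c37 and Cyp2c50, 75.8% between Cyp2c38 and Cyp2c39, 63.1% between Cyp2c67 and Cyp2c68 and 51.9% between Cyp2c67 and Cyp2c70, so the genes are not independent in these counts. A match is a description of letters and not of a bound site.

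Levels are given as log2 of the deposited intensity, and differences as log2 differences with their standard error from limma. A gene counted as changed at a Benjamini-Hochberg adjusted p under 0.05 over all 19935 genes. Of the 52 genes, 33 had a mean level at or above log2 2.79, the 40th percentile of all genes, and 19 were dimmer. Probe sets of near-identical Cyp2c, Cyp2d and Cyp3a genes can share signal, so values of single genes there are uncertain.

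The livers had hepatocyte signal, with albumin (Alb) between 12.19 and 12.44 on all arrays, and the mean level of 5 hepatocyte genes lay -0.22 to 0.11 from those genes' means. Of these 5, Hnf4a was higher with fasting in wild type, by 0.56 ± 0.13 (limma adjusted p = 0.00929). Ppard itself, the targeted gene, lay at 4.50, 4.36 and 4.58 in knockout fasted mice, against 4.62, 4.40, 4.54, 4.67 and 4.58 in wild-type fasted mice. In fed mice it lay at 5.00, 4.50, 4.45 and 4.89 in knockouts, against 4.78, 5.50, 5.31 and 4.83 in wild type. The genotypes overlapped, and since it is not known whether this probe set lies in the deleted part, the values do not check the genotype labels. Some arrays stood apart. Knockout fed mice 1 and 4 had mean levels of 20 acute phase genes 1.12 and 1.86 above those genes' means, against -0.64 to 0.51 on the other arrays. Wild-type fasted mouse 5 had 7 exocrine pancreas genes 2.25 above their means. Wild-type fasted mouse 1 was low for several P450 genes, described below. Over 12 Kupffer cell genes the mean level was 0.39 to 0.48 above those genes' means in knockout fed mice, against -0.22 to -0.02 in wild-type fed mice. Of the 12, 3 were called higher in knockout fed mice, against 0.451% of all genes called higher in that comparison. The part that these differences play in the P450 values was not tested beyond the values without those arrays given below.

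**Figure D1:**
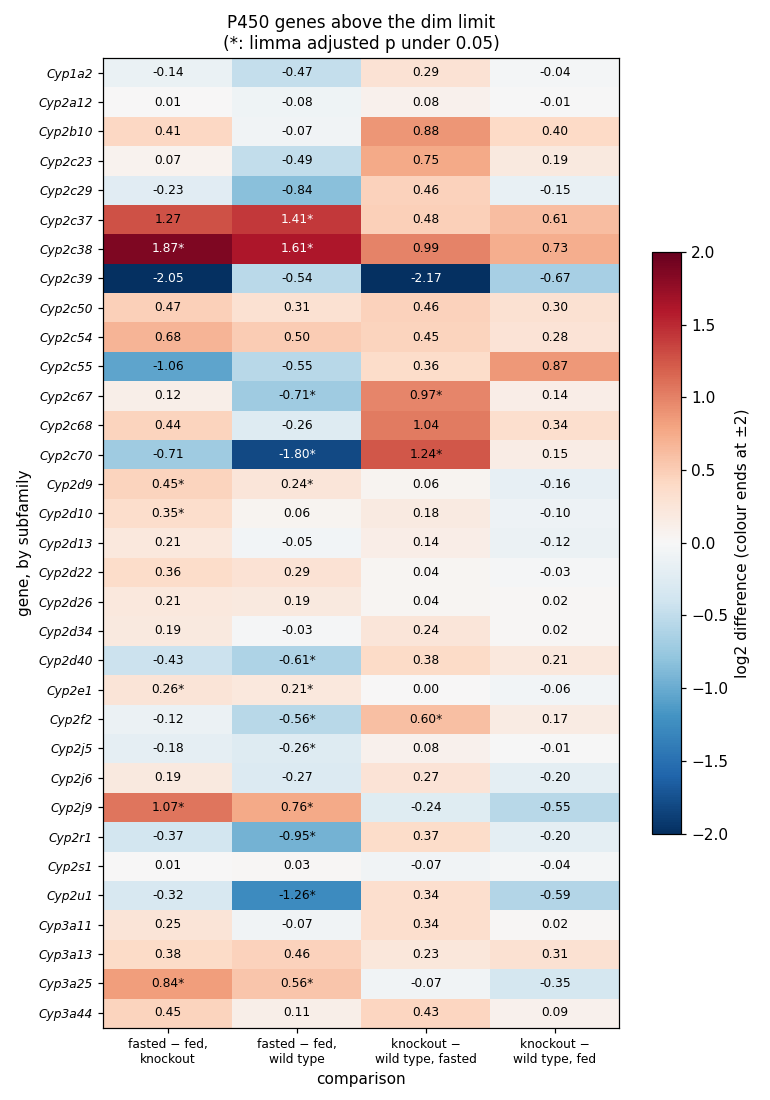
Log2 differences of the 33 P450 genes at or above the dim limit (vertical axis, by subfamily) in 4 comparisons (horizontal axis). Red cells are higher in fasted or in knockout mice and blue cells lower, and a star marks a limma adjusted p under 0.05. Cyp2c70 had -1.80 with fasting in wild type and 1.24 between knockout and wild type in fasted mice.

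Between knockout and wild-type mice that had been fasted, 3 P450 genes were higher in the knockout and none was lower. They were Cyp2c70, the mouse enzyme that makes muricholic acids, Cyp2f2, which oxidises naphthalene and is expressed around the portal vein, and Cyp2c67. The 3 of 52 make 5.77%, against 0.537% of all genes called in either direction in this comparison and 0.351% called higher. Beside these, the mean level of 12 Kupffer cell genes was -0.01 to 0.13 in knockout fasted mice, against -0.65 to 0.08 in wild-type fasted mice, with Clec4f higher in the knockout by 0.54. That of 10 stellate cell genes was -0.16 to 0.40, against -0.37 to -0.04. Their part in the P450 differences was not tested.

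Cyp2c70 lay at 10.62, 10.38 and 10.25 in knockout fasted mice, against 9.18, 9.44, 9.82, 8.69 and 8.75 in wild-type fasted mice. Every knockout mouse was above every wild-type mouse. The difference was 1.24 ± 0.19 (limma adjusted p = 0.00828), a 2.36-fold higher intensity in the knockout. It passed the test under all 24 alternatives run, with a value between 1.04 and 1.40. Those without fed mice, and probe set medians, could change the test but not this difference.

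Cyp2c67 lay at 10.33, 10.25 and 10.03 in knockout fasted mice, against 9.26, 9.16, 9.42, 9.03 and 9.33 in wild-type fasted mice. The groups did not overlap, and the difference was 0.97 ± 0.15 (limma adjusted p = 0.00876), or 1.95-fold. Without knockout fasted mouse 2 it was 0.94 with a limma adjusted p of 0.0607. A separate probe set shared by Cyp2c40, Cyp2c67, Cyp2c68 and Cyp2c69 had 10.41, 10.25 and 10.14 in knockout fasted mice, against 9.41, 9.57, 9.74, 9.29 and 9.57 in wild-type fasted mice. Its difference was 0.75 ± 0.15 (limma adjusted p = 0.0482, over all probe sets of the array). Signal of these genes cannot be told apart there, so it is not a second reading of Cyp2c67 alone.

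Cyp2f2 lay at 11.37, 11.30 and 11.28 in knockout fasted mice, against 10.92, 10.56, 10.88, 10.62 and 10.58 in wild-type fasted mice. The groups did not overlap, and the difference was 0.60 ± 0.10 (limma adjusted p = 0.0109), or 1.52-fold. When any 1 of the 3 knockout fasted mice was left out, the limma adjusted p was above 0.05, at most 0.0633.

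The other 49 P450 genes did not pass in this comparison. At an unadjusted p under 0.05 there were 15 of 52, or 28.8%, against 10.4% of all genes. Cyp2c68, a near relative of Cyp2c67, had a difference of 1.04 ± 0.25 (limma adjusted p = 0.0787), with 9.35, 9.34 and 9.12 in knockout fasted mice, against 7.98, 8.34, 8.90, 8.21 and 7.74 in wild-type fasted mice. Those groups did not overlap either. Over all 52 genes, 40 had a difference above 0 (76.9%, against 43.0% of all genes), with a median of 0.09 against -0.02 over all genes. Without wild-type fasted mouse 1 the count was 37, or 71.2%, against 43.9% of all genes.

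Between fed knockout and fed wild-type mice no P450 gene passed limma's test, against 0.677% of all genes. At an unadjusted p under 0.05 there were 3 of 52, or 5.77%, against 13.2% of all genes. The differences ran between -0.67 for Cyp2c39 and 0.87 for Cyp2c55, and the median was 0.01, as over all genes. Cyp2c70 was at 11.18, 11.06, 11.17 and 11.09 in knockout fed mice, against 10.96, 11, 11.15 and 10.81 in wild-type fed mice, a difference of 0.15 ± 0.18 (limma adjusted p = 0.771). The difference for Cyp2c67 was 0.14 ± 0.15 (limma adjusted p = 0.728) and that for Cyp2f2 was 0.17 ± 0.10 (limma adjusted p = 0.482).

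Without knockout fed mouse 3, 2 P450 genes were lower in fed knockout mice, 3.85% of the 52, against 1.37% of all genes called in either direction in that fit. Cyp2j9 then had a difference of -0.86 (limma adjusted p = 0.00831), and Cyp3a25 one of -0.50 (limma adjusted p = 0.0453). With all mice the differences were -0.55 ± 0.22 and -0.35 ± 0.14 and did not pass. Mouse 3 was the highest of the knockout fed mice for both genes.

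**Figure D2:**
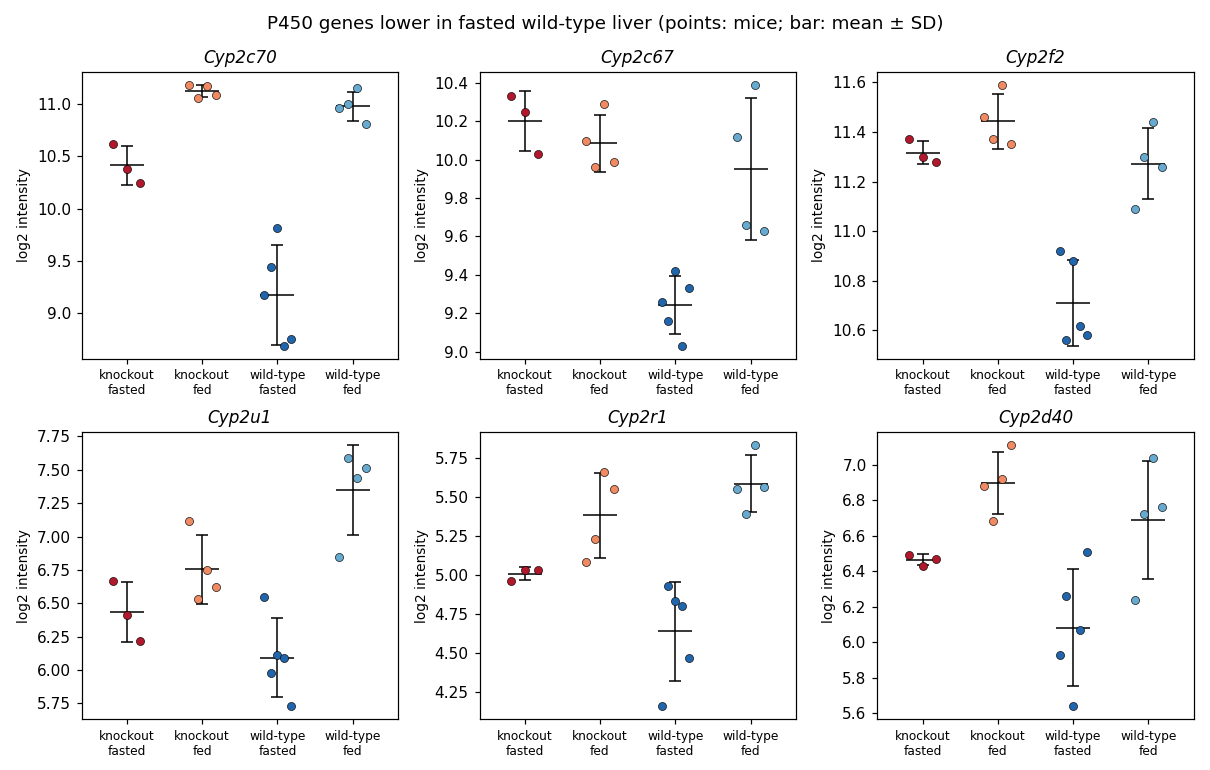
Log2 intensity (vertical axis) of 6 P450 genes in each mouse by group (horizontal axis), with the group mean and SD as a bar. For Cyp2c70 the wild-type fasted mice lie at 8.69 to 9.82 and all other mice at 10.25 to 11.18.

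With fasting in wild-type mice 7 P450 genes were lower and 7 were higher, 14 of 52 or 26.9%, against 9.22% of all genes. The share lower was 13.5%, against 5.92% of all genes, and the share higher 13.5%, against 3.3%. At an unadjusted p under 0.05 there were 21 of 52, or 40.4%, against 22.6% of all genes. The lower genes were Cyp2c70, Cyp2u1, Cyp2r1, Cyp2c67, Cyp2d40, Cyp2f2 and Cyp2j5. The fasting comparison in wild type shares the wild-type fasted mice with the comparison between fasted genotypes, so the 2 sets of values are not independent. In the same mice 10 stellate cell genes had a median fasting difference of -0.41, with Col3a1 and Lum lower, and mean levels of -0.37 to -0.04 in wild-type fasted mice, against -0.16 to 0.91 in wild-type fed mice. Of 8 endothelial genes Clec4g was lower. Their part in the P450 values was not tested.

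Cyp2c70 had the largest fall, to 9.18, 9.44, 9.82, 8.69 and 8.75 in wild-type fasted mice, against 10.96, 11, 11.15 and 10.81 in wild-type fed mice. The difference was -1.80 ± 0.18 (limma adjusted p = 7.43e-06), a 3.49-fold lower intensity. In knockout mice it was 10.62, 10.38 and 10.25 after fasting, against 11.18, 11.06, 11.17 and 11.09 when fed. Those groups also did not overlap, but the difference of -0.71 ± 0.20 did not pass (limma adjusted p = 0.06). It passed under some alternatives, among them with only the 2 groups in the fit (limma adjusted p = 0.0108).

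Cyp2u1, a long-chain fatty acid hydroxylase, lay at 6.55, 5.98, 6.11, 6.09 and 5.73 in wild-type fasted mice, against 6.85, 7.59, 7.44 and 7.51 in wild-type fed mice. Its difference was -1.26 ± 0.17 (limma adjusted p = 0.000206), or 2.39-fold lower. In knockout mice it lay at 6.67, 6.41 and 6.22 after fasting, against 7.12, 6.53, 6.75 and 6.62 when fed, with overlapping groups and a difference of -0.32 ± 0.20 (limma adjusted p = 0.484).

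Cyp2r1, which hydroxylates vitamin D in the liver, lay at 4.16, 4.93, 4.83, 4.80 and 4.47 in wild-type fasted mice, against 5.55, 5.39, 5.83 and 5.56 in wild-type fed mice. Its difference was -0.95 ± 0.15 (limma adjusted p = 0.000652), or 1.93-fold lower. Knockout mice had it at 4.96, 5.03 and 5.03 after fasting, against 5.08, 5.23, 5.66 and 5.55 when fed. Those groups did not overlap, and the difference of -0.37 ± 0.17 did not pass (limma adjusted p = 0.301).

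Cyp2c67 lay at 9.26, 9.16, 9.42, 9.03 and 9.33 in wild-type fasted mice, against 10.12, 9.66, 10.39 and 9.63 in wild-type fed mice, a difference of -0.71 ± 0.14 (limma adjusted p = 0.00319). In the knockout it lay at 10.33, 10.25 and 10.03 after fasting, against 10.10, 9.96, 10.29 and 9.99 when fed. The knockout groups overlapped, with a difference of 0.12 ± 0.16 (limma adjusted p = 0.815). Cyp2f2 fell by 0.56 ± 0.09 with fasting in wild type (limma adjusted p = 0.000849), to 10.92, 10.56, 10.88, 10.62 and 10.58 in fasted mice, against 11.09, 11.30, 11.44 and 11.26 in fed mice. In knockout mice it lay at 11.37, 11.30 and 11.28 after fasting, against 11.46, 11.37, 11.59 and 11.35 when fed, a difference of -0.12 ± 0.10 (limma adjusted p = 0.651). For both genes the wild-type fasted mice lay below the mice of the 3 other groups.

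The falls of the 2 remaining genes were smaller or less stable. Cyp2d40 lay at 5.93, 6.26, 5.64, 6.07 and 6.51 in wild-type fasted mice, against 6.24, 6.72, 7.04 and 6.76 in wild-type fed mice, with overlapping groups and a difference of -0.61 ± 0.16 (limma adjusted p = 0.0242). It did not pass in 7 of 24 alternatives. Cyp2j5, an epoxygenase of arachidonic acid, lay at 10.06, 10.18, 10.26, 10.18 and 10.37 in wild-type fasted mice, against 10.48, 10.34, 10.60 and 10.47 in wild-type fed mice. Its difference of -0.26 ± 0.08 (limma adjusted p = 0.0368) did not pass in 8 of 24 alternatives. In knockout mice the differences were -0.43 ± 0.18 for Cyp2d40 and -0.18 ± 0.09 for Cyp2j5, and neither passed. None of the 7 genes that fell in wild type passed in knockout mice, where 6 of the 7 had a difference below 0 and 3 had an unadjusted p under 0.05. In that comparison 44.7% of all genes had a difference above 0. At an unadjusted p under 0.05 there were 18 of the 52 P450 genes, or 34.6%, against 15.3% of all genes.

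**Figure D3:**
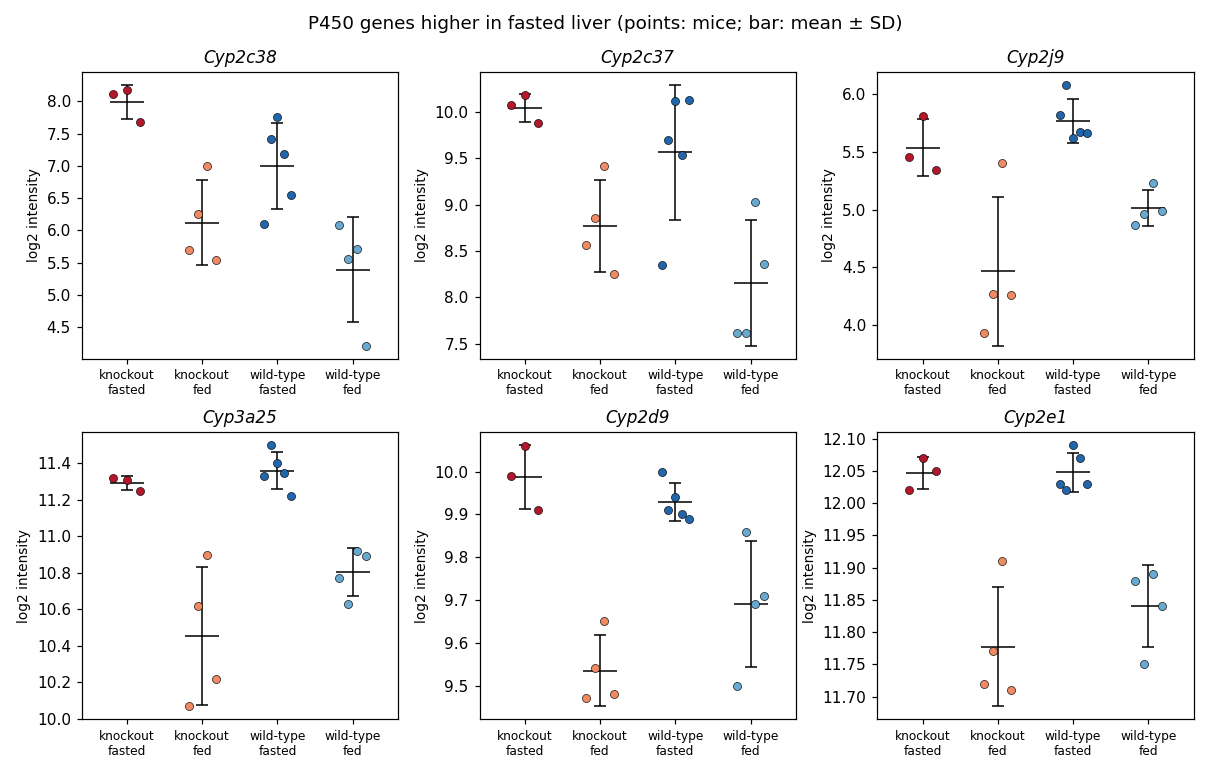
Log2 intensity (vertical axis) of 6 P450 genes in each mouse by group (horizontal axis), with the group mean and SD as a bar. Fasted mice of both genotypes lie above fed mice of the same genotype for Cyp2c38, Cyp3a25, Cyp2d9 and Cyp2e1.

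With fasting in knockout mice 7 P450 genes were higher and none was lower, 13.5% of the 52, against 3.67% of all genes called in either direction 1.87% called higher and 1.8% called lower. Of these 7, 6 were also higher with fasting in wild type: Cyp2c38, Cyp2j9, Cyp3a25, Cyp2d9, Cyp2e1 and Cyp3a57. The 2 comparisons share no arrays, but both tests used the same estimate of each gene's spread, taken over all groups. The 2 sets of calls are therefore not independent. The matching overlap over all genes is not given here, so the 6 of 7 cannot be set against it. Cyp2d10 passed in knockout mice and Cyp2c37 in wild-type mice. Without knockout fed mice 1 and 4 the count in knockout mice was 1, Cyp3a25, or 1.92%, against 1.09% of all genes. In wild type it was then 12, or 23.1%, against 9.76% of all genes.

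Cyp2c38, an arachidonic acid oxidising enzyme, had the largest rise in both genotypes. Knockout mice had it at 8.11, 8.17 and 7.68 after fasting, against 5.70, 6.25, 6.99 and 5.54 when fed, a difference of 1.87 ± 0.43 (limma adjusted p = 0.0214), or 3.65-fold. Without knockout fed mice 1 and 4 it was 1.37 (limma adjusted p = 0.252). The knockout difference did not pass in 7 of 24 alternatives, among them without any 1 of the 3 knockout fasted mice (limma adjusted p = 0.0523 to 0.099). In wild-type mice Cyp2c38 lay at 6.10, 7.42, 7.75, 7.18 and 6.55 after fasting, against 6.08, 5.56, 5.71 and 4.21 when fed. That difference was 1.61 ± 0.38 (limma adjusted p = 0.0118), or 3.05-fold, and it passed in all 24 alternatives.

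Cyp2c37, which oxidises arachidonic acid too, lay at 8.35, 9.69, 10.11, 9.53 and 10.13 in wild-type fasted mice, against 7.62, 7.62, 9.03 and 8.36 in wild-type fed mice, a difference of 1.41 ± 0.34 (limma adjusted p = 0.0149). The groups overlapped through wild-type fasted mouse 1 and fed mice 3 and 4. In the knockout it lay at 10.07, 10.18 and 9.88 after fasting, against 8.56, 8.85, 9.41 and 8.25 when fed. These did not overlap, and the difference of 1.27 ± 0.39 did not pass (limma adjusted p = 0.0902). The difference between the 2 fasting responses of Cyp2c37 was -0.13 ± 0.52 (limma adjusted p = 0.938). The closely related Cyp2c50 and Cyp2c54 had fasting differences of 0.47 ± 0.19 and 0.68 ± 0.21 in knockout mice and 0.31 ± 0.17 and 0.50 ± 0.19 in wild-type mice, none of which passed. Without wild-type fasted mouse 1, Cyp2c54 passed in knockout mice (0.68, limma adjusted p = 0.032) and in wild-type mice (0.67, limma adjusted p = 0.0135), and Cyp2c37 passed in knockout mice (1.27, limma adjusted p = 0.028).

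Cyp2j9 lay at 5.46, 5.81 and 5.34 in knockout fasted mice, against 3.93, 4.27, 5.40 and 4.26 in knockout fed mice, a difference of 1.07 ± 0.24 (limma adjusted p = 0.0193). In wild-type mice it lay at 5.82, 6.08, 5.62, 5.67 and 5.66 after fasting, against 4.87, 4.96, 5.23 and 4.99 when fed, a difference of 0.76 ± 0.21 (limma adjusted p = 0.0325). The wild-type groups did not overlap, and the knockout groups overlapped through fed mouse 3. Without knockout fed mice 1 and 4 the knockout difference was 0.70 (limma adjusted p = 0.236). The Cyp2j9 differences did not pass in 6 of 24 alternatives in knockout mice and in 8 of 24 in wild-type mice.

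Cyp3a25, a relative of the drug-metabolising Cyp3a11, lay at 11.32, 11.31 and 11.25 in knockout fasted mice, against 10.07, 10.62, 10.90 and 10.22 in knockout fed mice. The difference was 0.84 ± 0.15 (limma adjusted p = 0.00452), and 0.53 (limma adjusted p = 0.037) without knockout fed mice 1 and 4. In wild-type mice it lay at 11.33, 11.50, 11.40, 11.35 and 11.22 after fasting, against 10.77, 10.63, 10.92 and 10.89 when fed, a difference of 0.56 ± 0.13 (limma adjusted p = 0.0108). Neither genotype's groups overlapped. Cyp3a57, below the dim limit, had differences of 0.38 ± 0.09 in knockout and 0.37 ± 0.08 in wild-type mice (limma adjusted p = 0.0267 and 0.00688). A probe set shared by Cyp3a25, Cyp3a57 and Cyp3a59 had 1.13 ± 0.19 and 0.67 ± 0.17 (limma adjusted p = 0.00803 and 0.0307, over all probe sets), knockout first, so signal of the 3 genes cannot be told apart there.

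Cyp2d9, the male-biased testosterone hydroxylase, lay at 9.99, 10.06 and 9.91 in knockout fasted mice, against 9.47, 9.54, 9.65 and 9.48 in knockout fed mice, a difference of 0.45 ± 0.08 (limma adjusted p = 0.0054). In wild-type mice it lay at 10, 9.91, 9.94, 9.90 and 9.89 after fasting, against 9.50, 9.86, 9.69 and 9.71 when fed, a difference of 0.24 ± 0.07 (limma adjusted p = 0.0496). The wild-type difference did not pass in 20 of 24 alternatives. Cyp2d10 lay at 10.45, 10.61 and 10.44 in knockout fasted mice, against 10.16, 10.03, 10.32 and 10.10 in knockout fed mice, a difference of 0.35 ± 0.09 (limma adjusted p = 0.037). That difference did not pass in 9 of 24 alternatives, among them without any 1 of the 3 knockout fasted mice (limma adjusted p = 0.0755 to 0.187). In wild-type mice that of Cyp2d10 was 0.06 ± 0.08 (limma adjusted p = 0.673).

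Cyp2e1, which oxidises ethanol, acetone and paracetamol, lay at 12.02, 12.07 and 12.05 in knockout fasted mice, against 11.72, 11.77, 11.91 and 11.71 in knockout fed mice, a difference of 0.26 ± 0.07 (limma adjusted p = 0.0405). In wild-type mice it lay at 12.03, 12.02, 12.09, 12.07 and 12.03 after fasting, against 11.88, 11.75, 11.89 and 11.84 when fed, a difference of 0.21 ± 0.06 (limma adjusted p = 0.0367). Every fasted mouse was above every fed mouse. The differences were small, and they did not pass in 16 of 24 alternatives in knockout mice and in 13 of 24 in wild-type mice.

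**Figure D4:**
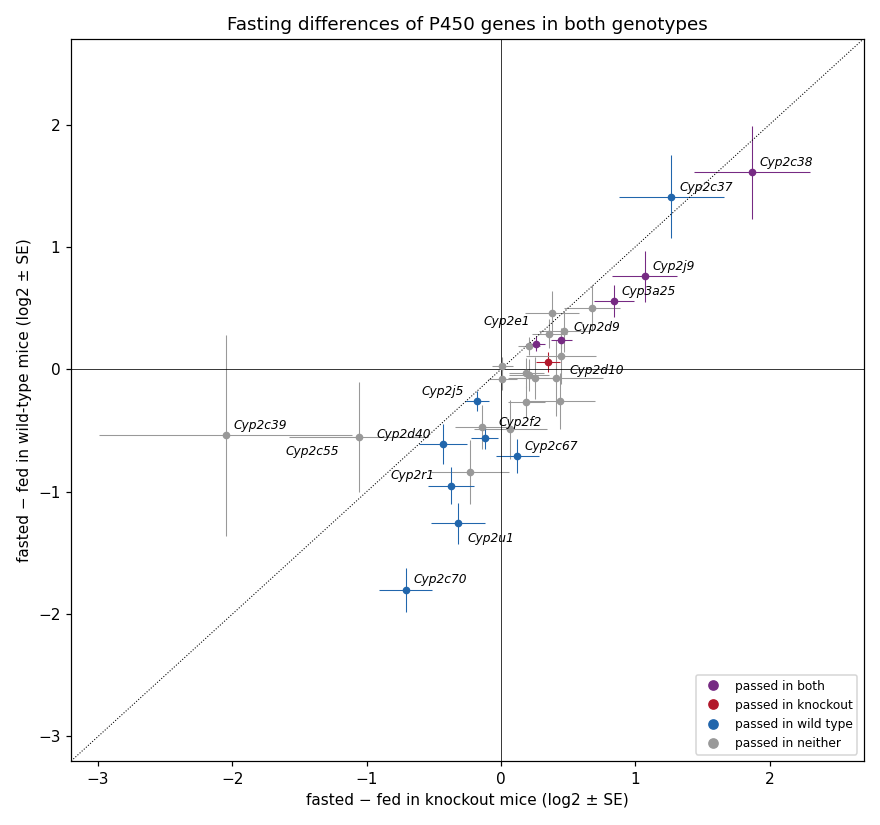
Fasted minus fed log2 difference of the 33 P450 genes at or above the dim limit in knockout mice (horizontal axis) and in wild-type mice (vertical axis), with standard errors as bars, equal values as a dotted line and colours for the limma adjusted p under 0.05. Cyp2c70 lies at -0.71 and -1.80, and Cyp2c38 at 1.87 and 1.61.

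The difference between the fasting responses was tested directly. No P450 gene passed limma's test, against 0.01% of all genes (2 genes), and at an unadjusted p under 0.05 there were 8 of 52, or 15.4%, against 12.2% of all genes. The difference was 1.09 ± 0.27 for Cyp2c70 (limma adjusted p = 0.175), 0.93 ± 0.26 for Cyp2u1 (limma adjusted p = 0.217), 0.83 ± 0.21 for Cyp2c67 (limma adjusted p = 0.191) and 0.44 ± 0.14 for Cyp2f2 (limma adjusted p = 0.271). The fall that passed in wild type and did not in knockout mice was not shown to differ between genotypes for any of these genes.

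By subfamily, changes lay in Cyp2c, Cyp2d, Cyp2e, Cyp2f, Cyp2j, Cyp2r, Cyp2u and Cyp3a. In Cyp2c, 1 of 13 genes rose with fasting in knockout mice, and 2 rose and 2 fell in wild type. The Cyp2c differences spread widest, between -2.05 and 1.87 in knockout and between -1.80 and 1.61 in wild-type mice. In Cyp2d, 2 of 9 rose in knockout mice, and 1 rose and 1 fell in wild type. None of the genes of Cyp1a, Cyp1b, Cyp2a, Cyp2b, Cyp2g, Cyp2s, Cyp2t and Cyp2w passed in any comparison. The 19 dimmer genes lay between 1.54 and 2.95 on single arrays, with fasting differences between -0.17 and 0.38 in knockout mice and between -0.15 and 0.37 in wild-type mice.

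Cyp1a2, Cyp1a1, Cyp1b1, Cyp3a11, Cyp3a13 and Cyp3a44, which include known targets of the inducing receptors, did not pass in any comparison with all mice. Cyp1a2, which oxidises caffeine, lay at 10.29, 10.17 and 10.16 in knockout fasted mice, against 10.45, 10.28, 10.48 and 10.16 in knockout fed mice. In wild type it lay at 9.11, 10.40, 10.22, 9.81 and 10.03 after fasting, against 10.29, 10.42, 10.50 and 10.33 when fed. It had a fasting difference of -0.14 ± 0.20 in knockout mice and -0.47 ± 0.18 in wild-type mice (limma adjusted p = 0.833 and 0.124). Without wild-type fasted mouse 2 the wild-type difference was -0.59 and passed (limma adjusted p = 0.0426). Without wild-type fasted mouse 1, the lowest at 9.11, it was -0.27 and did not pass (limma adjusted p = 0.17). Cyp1a1, the standard aryl hydrocarbon receptor target, was dim at 1.92 to 2.36 on all arrays, and Cyp1b1 at 1.96 to 2.63. Cyp3a11, the main PXR-induced gene, lay at 10.59, 10.83 and 10.77 in knockout fasted mice, against 10.38, 10.37, 10.78 and 10.41 in knockout fed mice. In wild type it lay at 9.61, 10.79, 10.52, 10.54 and 10.52 after fasting, against 10.41, 10.41, 10.49 and 10.53 when fed. The groups overlapped in both genotypes, with differences of 0.25 ± 0.20 in knockout and -0.07 ± 0.17 in wild-type mice. Cyp3a13 had 0.38 ± 0.20 and 0.46 ± 0.18, and Cyp3a44 had 0.45 ± 0.26 and 0.11 ± 0.23, knockout first, without passing. The wild-type difference of Cyp3a13 passed with only the 2 groups in the fit (limma adjusted p = 0.0369) and without knockout fed mouse 4 (limma adjusted p = 0.0472). Cyp2b9 and Cyp2b13, female-biased genes, lay at 1.68 to 2.23 and at 1.79 to 1.99, and none of the 6 measured genes of the female-biased list passed in any comparison.

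**Figure D5:**
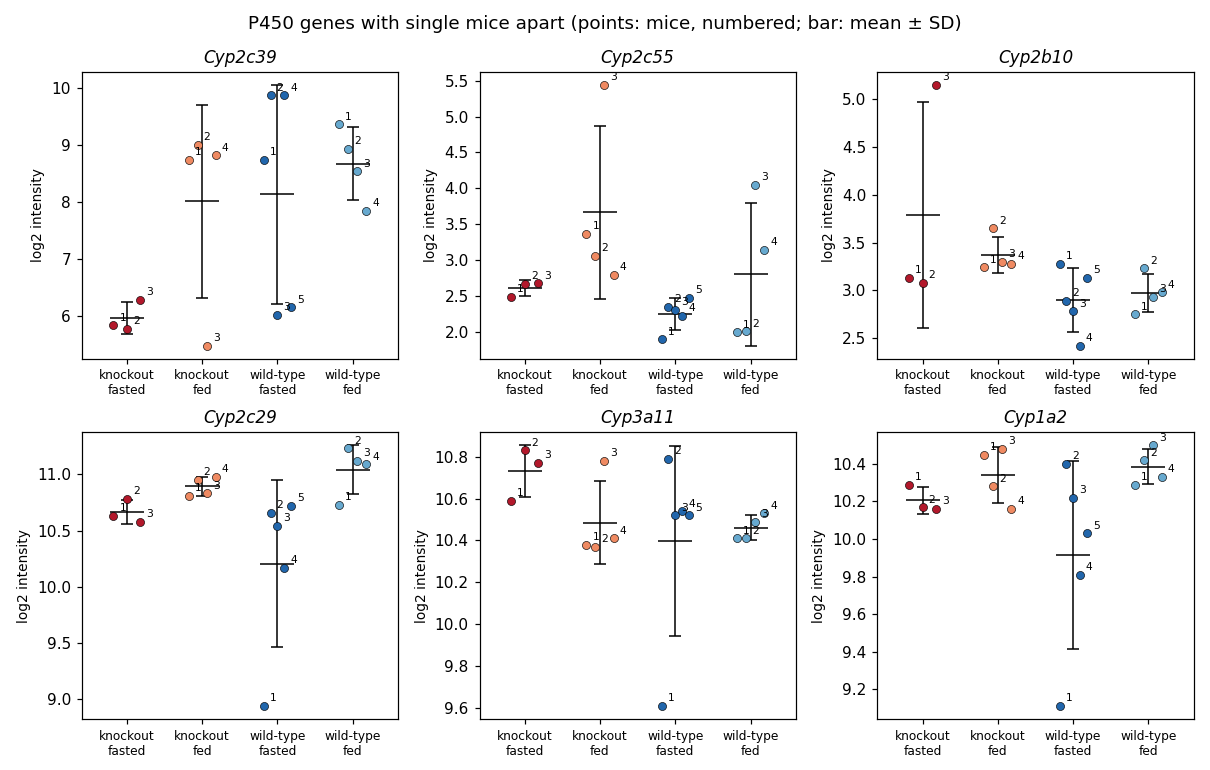
Log2 intensity (vertical axis) of 6 P450 genes in each mouse by group (horizontal axis), numbered by mouse, with the group mean and SD as a bar. Cyp2c39 lies either at 5.47 to 6.28 or at 7.85 to 9.88, and wild-type fasted mouse 1 is the lowest of its group for Cyp2c29, Cyp3a11 and Cyp1a2.

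Some P450 genes varied between mice of 1 group more than most genes. The SD within groups was over 0.5 for 5 of 52 genes, against 1.38% of all genes, namely Cyp2c39 (1.44), Cyp2c55 (0.79), Cyp2c38 (0.66), Cyp2c37 (0.60) and Cyp2b10 (0.54). The median over the 52 was 0.18, against 0.15 over all genes. Cyp2c39, an oxidase of arachidonic and retinoic acid described here for its spread, lay at 5.83, 5.77 and 6.28 in knockout fasted mice, against 8.74, 9.01, 5.47 and 8.82 in knockout fed mice. In wild-type mice it lay at 8.74, 9.88, 6.02, 9.88 and 6.15 after fasting, against 9.37, 8.94, 8.54 and 7.85 when fed. The values left a gap: 6 mice lay at 5.47 to 6.28 and 10 mice at 7.85 to 9.88. The low mice were 3 of 3 knockout fasted, 1 of 4 knockout fed, 2 of 5 wild-type fasted and none of the wild-type fed mice, and the difference of -2.17 ± 0.90 between fasted knockout and wild type did not pass (limma adjusted p = 0.409).

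Cyp2b10, the standard CAR target, lay at 3.13, 3.08 and 5.15 in knockout fasted mice, against 3.28, 2.89, 2.78, 2.42 and 3.13 in wild-type fasted mice. Knockout fasted mouse 3 stood above all others, and the difference of 0.88 ± 0.34 did not pass (limma adjusted p = 0.362). Cyp2c55 lay at 3.37, 3.06, 5.44 and 2.80 in knockout fed mice, against 2.00, 2.01, 4.05 and 3.15 in wild-type fed mice. Mouse 3 was the highest in both fed groups. Cyp2c29, an arachidonic acid epoxygenase and CAR target, lay at 8.94, 10.66, 10.54, 10.17 and 10.72 in wild-type fasted mice, against 10.73, 11.23, 11.12 and 11.09 in wild-type fed mice. All fasted mice were below all fed mice, yet the difference of -0.84 ± 0.26 did not pass with all mice (limma adjusted p = 0.0531). Without the low mouse 1 it was -0.52 and passed (limma adjusted p = 0.0133). With mouse 1 kept, it passed without wild-type fasted mouse 2, 3 or 5 (limma adjusted p = 0.038, 0.0495 and 0.0332). It also passed with array centring (limma adjusted p = 0.0465), dim genes left out (0.0353) and the replicate block (0.017). In knockout mice the difference was -0.23 ± 0.29 (limma adjusted p = 0.802).

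Wild-type fasted mouse 1 was also the lowest of its group for Cyp1a2 (9.11), Cyp2c23 (8.53), Cyp2c37 (8.35), Cyp3a11 (9.61) and Cyp3a44 (4.50). Over 8 measured P450 genes of the pericentral list, its mean level was 0.75 under those genes' means, written as -0.75, against 0.05 to 0.38 in the other wild-type fasted mice. Over 14 pericentral genes outside the P450 family the same mouse had -0.08, against -0.08 to 0.25 in the other wild-type fasted mice. Without it, the Cyp2c70, Cyp2c67 and Cyp2f2 differences between fasted genotypes were 1.24, 0.97 and 0.66, and all 3 passed.

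Among genes that control or serve the P450 enzymes, the 2 xenobiotic receptors rose with fasting in both genotypes. Nr1i3 (CAR) lay at 9.36, 9.34 and 8.85 in knockout fasted mice, against 7.11, 8.15, 8.16 and 7.25 in knockout fed mice, a difference of 1.51 ± 0.22 (limma adjusted p = 0.000998). In wild-type mice Nr1i3 lay at 9.66, 9.84, 9.90, 9.77 and 10 after fasting, against 8.31, 8.02, 8.26 and 8.36 when fed, a difference of 1.60 ± 0.19 (limma adjusted p = 6.31e-05). No fasted mouse overlapped a fed mouse of its genotype. Nr1i2 (PXR) had differences of 0.71 ± 0.18 in knockout and 0.90 ± 0.15 in wild-type mice (limma adjusted p = 0.0304 and 0.00128), and Ahr 0.28 ± 0.13 and 0.33 ± 0.11, which did not pass. The knockout call of Nr1i2 was lost in 7 of 24 alternatives, among them without any 1 of the 3 knockout fasted mice (limma adjusted p = 0.0959 to 0.106) and without knockout fed mice 1 and 4 (limma adjusted p = 0.139).

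The counts of the following lists stand against 1.87% of all genes called higher and 1.8% called lower with fasting in knockout mice, and against 3.3% higher and 5.92% lower in wild-type mice. Of 15 measured receptors and factors that control P450 genes, 2 rose and none fell with fasting in knockout mice, and 6 rose and 1 fell in wild-type mice, among them Cebpb, a liver transcription factor, with 0.99 ± 0.18. None passed between genotypes with all mice. Nr1i3 had -0.65 ± 0.21 between fasted knockout and wild-type mice, with groups that did not overlap, and passed without knockout fed mice 1 and 4 (limma adjusted p = 0.0206). Of 17 measured CAR and PXR targets outside the P450 family, 3 rose and 1 fell in knockout mice, and 6 rose and none fell in wild type. The bile acid exporter Abcc3 rose by 1.48 ± 0.28 in knockout and 1.15 ± 0.24 in wild-type mice, and the transporter Slco1a4 by 1.51 ± 0.29 and 1.79 ± 0.25. None of 5 measured aryl hydrocarbon receptor targets passed in any comparison.

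Of 9 measured heme genes, Alas1, which catalyses the first step of heme synthesis, rose by 1.90 ± 0.30 with fasting in wild-type mice (limma adjusted p = 0.000612), and Alad, the next enzyme, fell by 0.65 ± 0.15. In knockout mice the Alas1 difference was -0.21 ± 0.34 and did not pass. The difference between the 2 fasting responses of Alas1 was -2.11 ± 0.45 and did not pass either (limma adjusted p = 0.15). Alas1 lay at 10.43, 8.96, 10.39 and 9.99 in knockout fed mice, against 8.98, 8.70, 8.30 and 7.68 in wild-type fed mice, a difference of 1.53 ± 0.31 (limma adjusted p = 0.0325). Without knockout fed mice 1 and 4 it was 1.26 (limma adjusted p = 0.298). Hmox1, which breaks heme down, was higher by 1.29 ± 0.27 in knockout fed mice (limma adjusted p = 0.0389), and by 0.72 (limma adjusted p = 0.359) without those 2 mice. Of 4 measured electron transfer partners, Cyb5b fell by 0.81 ± 0.16 with fasting in knockout and by 0.93 ± 0.14 in wild-type mice. Cyb5r3 fell by 0.59 ± 0.11 in wild-type mice. Por, the P450 reductase gene, had no probe set of its own.

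Of 10 growth hormone signalling genes, Cux2 rose with fasting in both genotypes, by 0.50 ± 0.13 in knockout and 0.57 ± 0.11 in wild-type mice. Stat5b, Ghr and Jak2 fell in wild type, Stat5b by 0.49 ± 0.12 and Ghr by 0.45 ± 0.11, and Onecut1 fell by 2.09 ± 0.55 in knockout mice. The knockout calls were less stable: that of Cux2 was lost in 12 of 24 alternatives and that of Onecut1 in 13, among them without knockout fed mice 1 and 4 (-1.61, limma adjusted p = 0.329). Of 14 pericentral genes outside the family, 1 fell in knockout mice, and 2 rose and 1 fell in wild-type mice. Of 10 periportal genes outside the family, 1 rose in knockout mice, and 3 rose and 2 fell in wild-type mice. None of these passed between fasted knockout and fasted wild-type mice with all mice in the fit. The periportal genes had a median difference of 0.21 there, against -0.02 over all genes. Cdh1, a periportal adhesion protein, had 0.98 ± 0.26 with groups that did not overlap, and passed without wild-type fasted mouse 1 (1.17, limma adjusted p = 0.0254). Ctsc, a protease gene of the periportal list, had 0.60 ± 0.14, also without overlap, and passed without wild-type fasted mouse 3 (0.70, limma adjusted p = 0.0218). Between fed genotypes Ctsc was higher in the knockout with all mice, by 0.63 ± 0.14 (limma adjusted p = 0.047). That call, the only 1 among the 10 periportal genes there, against 0.451% of all genes called higher, was lost in 16 of 24 alternatives. The 14 pericentral genes outside the family had a median difference of -0.07 between fasted genotypes, with a range of -0.69 to 0.35. The 8 measured P450 genes of the pericentral list had a median of 0.46, and none of them passed. Slc1a2, a pericentral glutamate transporter and the lowest of the 14, had -0.69 ± 0.22. It passed without wild-type fasted mouse 1 (-0.90, limma adjusted p = 0.00887).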

How the data were processed

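Total RNA was hybridised to Affymetrix whole-transcript arrays, and the authors deposited normalized intensity values. The submitters' processing notes name RMA. Array medians of intensity lay between 8.08 and 8.61, and log2 of the deposited values was taken here. No source used here gives an RMA version or a genome build. Of 35519 probe sets, 21780 were paired with 1 symbol, 1605 with several and 12134 with none. Only the first kind was used, with the highest-mean probe set per gene, leaving 19935 genes. Left out were 5 probe sets of several P450 symbols, read separately, and 1 pseudogene. limma 3.58.1 in R 4.3.3 fitted 4 group means without a block (12 residual and 4.55 prior degrees of freedom). Tests were two-sided and adjusted by Benjamini-Hochberg within each of 5 comparisons. The fit was also run on simulated data with independent normal noise. That run had no outlying arrays, so it does not cover the arrays that stood apart here. Labels call the replicates biological; the number of arrays limits precision. Named genes are those past the threshold and a fixed list of well-known members, of which Cyp2a5 and Cyp3a41a had no probe set of their own. The fixed list was not picked for how its genes moved, but members and lists were chosen with earlier results of these data known. Genes named for spread were chosen after their values were seen. Alternatives were quantile normalization, array centring, dim genes left out, probe set medians, a variance trend, the replicate number as a block, 2-group fits and arrays left out. Leaving out arrays outside a comparison changes its test but not its difference. With 1 probe set for each P450 gene, probe set medians leave the P450 values as they were. Windows and motifs came from RefSeq (GRCm38.p6) and were aligned with Biopython 1.88.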

Additional observations from a re-analysis of the deposited data

Results flagged for a closer look

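Single mice lay far from the others of their group, by Dixon's test, in 6 of 114 groups of 4 or 5 mice. The groups were tested over the named P450 genes and the others at or above the dim limit. Chance gives about 5% of groups, and the count is near that share. Cyp2c39 was 5.47 in knockout fed mouse 3, against 8.74 to 9.01 in the other knockout fed mice. Cyp3a11 was 10.78 in the same mouse, against 10.37 to 10.41. Cyp3a11 was 9.61 in wild-type fasted mouse 1, against 10.52 to 10.79 in the other wild-type fasted mice. Cyp2b10 was 3.65 in knockout fed mouse 2, against 3.24 to 3.30. Cyp2c50 was 9.84 in wild-type fed mouse 3, against 9.28 to 9.36. Cyp1a1, below the dim limit, was 2.03 in wild-type fed mouse 4, against 2.20 to 2.23.

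A probe set paired with both Cyp2a5, the coumarin hydroxylase, and Cyp2a4, a steroid hydroxylase, was outside the 52 genes because it has 2 symbols. It lay at 8.09, 9.62, 10.08, 8.49 and 9.61 in wild-type fasted mice, against 7.35, 6.63, 7.56 and 6.35 in wild-type fed mice, without overlap. The difference was 2.21 ± 0.42 (limma adjusted p = 0.00566, over all probe sets of the array), or 4.62-fold. In knockout mice it lay at 7.87, 8.63 and 8.65 after fasting, against 7.90, 7, 8.56 and 7.23 when fed, with overlap and a difference of 0.71 ± 0.48 (limma adjusted p = 0.586). The difference between these responses was -1.5 ± 0.63 and did not pass (limma adjusted p = 0.394).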

How the results depend on the processing

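For fasting in knockout mice the number of P450 genes called was 7 with all mice, 4 with only those 2 groups fitted, 1 when knockout fed mice 1 and 4 were left out, and 2 to 9 when 1 mouse was left out. The 4 were 2 of the 7 (Cyp2c38 and Cyp2d9) and 2 others, Cyp2c37, which was higher, and Cyp2c70, which was lower. It gave 2 without knockout fed mouse 1 or 4 or knockout fasted mouse 1 or 2, and 4 without knockout fasted mouse 3. Leaving out 1 mouse gave 9 to 14 calls for fasting in wild type (14 with all mice; 9 without wild-type fed mouse 1 or 4), 1 to 4 between fasted genotypes (3 with all mice; 1 without knockout fasted mouse 2) and 0 to 2 between fed genotypes (0 with all mice). Of the 24 calls of P450 genes over the 5 comparisons, 15 were kept with only 2 groups in the fit, which also made 3 further calls (18 in all), and 16 to 24 were kept when 1 mouse was left out. Over all genes, leaving out 1 mouse gave 330 to 951 calls for fasting in knockout (732 with all), 1199 to 2006 in wild type (1838), 21 to 126 between fasted genotypes (107), 59 to 274 between fed genotypes (135) and 0 to 8 for the difference of responses (2). With only 2 groups in the fit there were 401 and 76 calls for fasting in knockout and between fed genotypes, and without knockout fed mice 1 and 4 there were 218 and 51. The difference of responses had 1 call with dim genes left out, with a variance trend, with the replicate block and without knockout fed mice 1 and 4. The cause of these changes was not tested, beyond fewer arrays in a fit. No call changed sign. Same-numbered mice had deviations correlating between -0.25 and 0.23 over 21 pairs, with 5 over 0.1. These were not compared with differently numbered mice, so they do not settle whether the numbers pair the samples. With the replicate block 7 P450 genes (13.5%) were called for fasting in knockout, against 3.74% of all genes, and 12 (23.1%) in wild type, against 8.31%. Between fasted genotypes 3 (5.77%) were called, against 0.366% of all genes, and between fed genotypes none, against 0.853%. The 7 were 5 of those called without the block and 2 others, Cyp2c37 and Cyp2c70. The 12 were 11 of those called without the block and Cyp2c29. The probe sets of several symbols were fitted together with all probe sets as an alternative chosen after seeing the data.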
